A study of Arabidopsis thaliana with 14 samples.

Results

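The 47 loci described here were the unnamed genes whose leaf transcript signal was low after drought in each of 3 Arabidopsis thaliana lines. They were chosen by measured values. A probe set qualified where the annotation named 1 gene and gave it no symbol but its locus number, which held for 11932 probe sets after AT3G02840 was left out. It also had to lie at -1.5 or less, at least 2.83-fold lower on the log2(signal + 16) scale, in 3 differences of group means. These were drought minus water in Col-0 (219 probe sets), drought minus water in camta5 (129) and the droughted overexpression line minus watered Col-0 (711). Both of the first criteria were met by 96 probe sets and all 3 by 47, each for a different gene, of 22810 probe sets on the array. Because these differences chose the loci, they are given as a description without a test. In whole leaves, fewer cells of a type and less RNA per cell cannot be told apart.

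Leaf RNA of plants 1 month old was hybridised to 14 ATH1 arrays, 1 per sample, from 250 ng of total RNA each. The droughted groups, collected after 14 days of drought, were the overexpression line of CAMTA5 in the Col-0 background (labelled OX-5, here OX5, 2 arrays), the mutant line camta5-a in the Col-0 background (here camta5, 3 arrays) and wild-type Col-0 (3 arrays). The watered groups were camta5 (3 arrays) and Col-0 (3 arrays). A watered OX5 group was not analysed here, so the effect of drought and that of the line cannot be told apart in OX5. The promoter that drives the transgene, the lesion of camta5-a and the number of plants per sample were not stated in the labels, and nothing says whether replicates came from separate pots. The titles call them biological replicates, and p-values reflect the spread among these arrays, which may be technical. The title of camta5 water replicate 1 names the mutant while its genotype field gives wild type, and the title was followed.

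When soil dries, abscisic acid accumulates, stomata close and leaf growth slows. Transcripts of growth, cell wall extension and photosynthesis are commonly lowered while those of protective proteins are raised. CAMTA proteins are transcription activators that bind calmodulin, the calcium sensor, and so link calcium signals to transcription. The annotation used here gave the 47 loci no product name: 43 had synonyms, and none of these held a product word. No function is therefore assigned to any of them, and they are called by locus number, whose digit after AT is the chromosome.

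Both OX5 arrays were unlike the other 12, with Spearman coefficients of 0.805 to 0.865 across probe sets, against 0.896 to 0.960 among the others. CAMTA5 (AT4G16150) had signals of 402 and 290.4 in OX5, 265, 284 and 306 in droughted camta5 and 232, 146 and 217 in droughted Col-0, against 191, 172 and 154 in watered camta5 and 115, 179 and 152 in watered Col-0. It was 0.76 ± 0.25 (SE) higher on the log2 scale in OX5 than in droughted Col-0 (limma, adjusted p = 0.0198). This difference fell to 0.54 when OX5 replicate 1 was dropped and rose to 0.99 when OX5 replicate 2 was. Each leaves 1 OX5 array, so no call is read from them, and the call with all arrays is not shown to hold without replicate 1. Dropping replicate 2 of droughted Col-0 gave 0.57, too little for a call (limma, adjusted p = 0.0783). A limma fit of only the arrays compared did not call it either (adjusted p = 0.0717). From droughted camta5, OX5 differed by 0.25 ± 0.25 (SE) without a call (limma, adjusted p = 0.435). CAMTA5 was not lower in camta5. The site of the mutation relative to the probes is unknown here, so the level does not check that label. Of 10 leaf photosynthesis markers 3 were measured, and their summed signal was 65218 to 74232 in OX5, 53041 to 57836 in droughted camta5, 45581 to 58503 in droughted Col-0, 76521 to 81175 in watered camta5 and 65134 to 81777 in watered Col-0. On the differences of the rule, RCA was near 0, at 0.10 in OX5, -0.15 in camta5 and -0.10 in Col-0. In the same order PSBY was at -0.22, -0.98 and -1.36, and PSAN at -0.37, -0.79 and -0.83. Of 5 senescence markers 3 were measured, with sums of 2179 to 2722 in OX5, 4269 to 5704 in droughted camta5, 7091 to 12450.1 in droughted Col-0, 2367 to 2888 in watered camta5 and 2666 to 5907 in watered Col-0. The 3 did not move together: SAG29 (AT5G13170), a sugar transporter gene, averaged 17.6 ± 20.3 in OX5, 3145 ± 847 in droughted camta5 and 6561 ± 3046 in droughted Col-0, against 138 ± 12.96 in watered camta5 and 201 ± 93.4 in watered Col-0. The transcription factor gene WRKY6 (AT1G62300) averaged 814 ± 167 in OX5, 214 ± 147 in droughted camta5 and 131 ± 49.4 in droughted Col-0, against 228 ± 39.1 in watered camta5 and 275 ± 105 in watered Col-0, and WRKY53 (AT4G23810) 1618 ± 197 in OX5, 1741 ± 428 in droughted camta5 and 2703 ± 1379 in droughted Col-0, against 2178 ± 347 in watered camta5 and 3631 ± 1562 in watered Col-0 (SD, n = 2 for OX5 and 3 for the others). Both trichome markers measured of 3, TRY and GIS, summed to 33.6 to 187 in OX5, 1003 to 1424 in droughted camta5, 1321 to 2067 in droughted Col-0, 861 to 1050 in watered camta5 and 901 to 1106 in watered Col-0. These markers did not move together either. On the differences of the rule TRY was at -2.235 in OX5, -0.82 in camta5 and -1.21 in Col-0, and GIS at -4.38, 0.87 and 1.11. All 4 root markers measured of 6 stayed low, with sums of 43.2 to 209 in OX5 and 40.1 to 162 on the other arrays. The part of these differences in the results below was not tested.

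The lowest means of the 3 differences were those of AT1G60590, AT5G12940 and AT2G27420, which lay under -3 in each. The OX5 difference was taken from watered Col-0, so it holds the line as well as drought. AT1G60590 had signals of 60.6 and 2.41 on the OX5 arrays, 426, 116 and 91.5 in droughted camta5 and 463, 29.8 and 331 in droughted Col-0, against 2062, 2263 and 2599 in watered camta5 and 3906, 3039 and 2224 in watered Col-0. Its difference was -6.32 in OX5, -3.65 in camta5 and -3.93 in Col-0. Every drought array lay below every water array, and the droughted plants ranged widely among themselves, with OX5 replicate 2 close to the floor of the scale. AT5G12940 had 15.5 and 17.2 on the OX5 arrays, 217, 3.67 and 57.9 in droughted camta5 and 226, 14.00 and 74.03 in droughted Col-0, against 835, 967 and 1298 in watered camta5 and 1501, 1693 and 1110.4 in watered Col-0. Both OX5 arrays of AT5G12940 lay within the range of the 6 other drought arrays, where camta5 replicate 2 and Col-0 replicate 2 were lowest. AT2G27420 had 76.1 and 82.3 on the OX5 arrays, 90.1, 85.5 and 72.4 in droughted camta5 and 330.3, 40.1 and 82.9 in droughted Col-0, against 1172, 1049.8 and 1271 in watered camta5 and 1728, 2773 and 1790.3 in watered Col-0. In AT2G27420 the OX5 and camta5 arrays lay between 72.4 and 90.1, while Col-0 replicate 1 stood above them and Col-0 replicate 2 below.

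**Figure D1:**
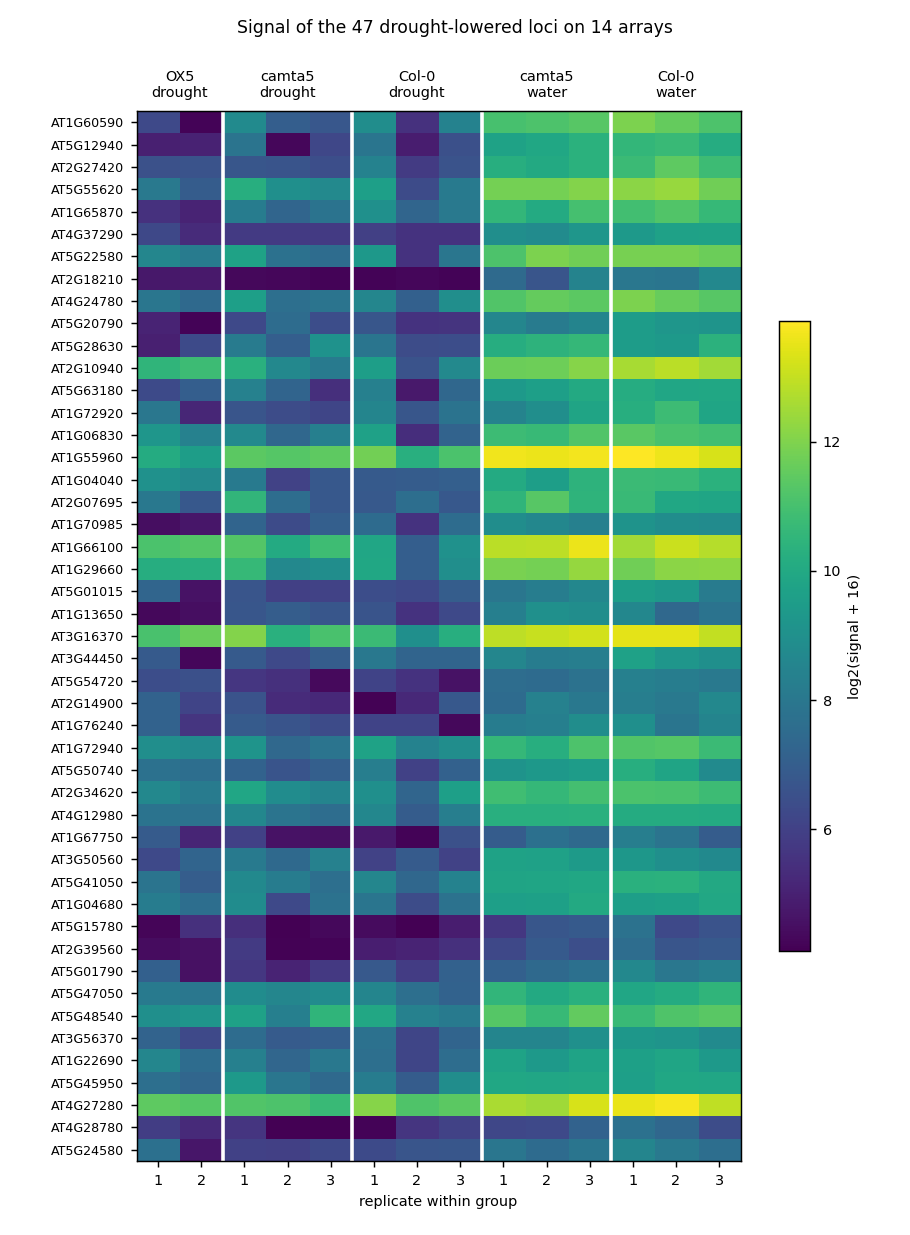
Signal of the 47 loci (rows, ordered by the mean of the 3 differences) on the 14 arrays (columns, by group and replicate), as log2(signal + 16) in colour. In 43 of the 47 rows all 6 water arrays on the right are brighter than all 8 drought arrays on the left, on the same arrays that the rule used.

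The other loci among the 10 with the lowest mean of the 3 differences were AT5G55620, AT1G65870, AT4G37290, AT5G22580, AT2G18210, AT4G24780 and AT5G20790. AT5G55620 had 252 and 109 on the OX5 arrays, 1172, 486 and 399 in droughted camta5 and 772, 64.2 and 262 in droughted Col-0, against 3585, 3584 and 4289 in watered camta5 and 4659, 5251 and 3419 in watered Col-0. It fell less in camta5 (-2.61) than in Col-0 (-4.08) in these group means. The difference of 1.47 ± 0.85 (SE) was not called, in a test made of contrasts that the rule used. AT4G37290 had 59.2 and 23.8 on the OX5 arrays, 39.01, 39.1 and 38.96 in droughted camta5 and 45.9, 30.3 and 31.1 in droughted Col-0, against 468, 434 and 581 in watered camta5 and 646, 820.4 and 841 in watered Col-0. The 3 droughted camta5 arrays were nearly level, while the OX5 arrays held both the highest and the lowest drought value, and no comparison between the droughted lines called the locus. AT2G18210 had 11.1 and 11.6 on the OX5 arrays, 4.05, 3.47 and 2.36 in droughted camta5 and 2.31, 3.46 and 2.57 in droughted Col-0, against 165, 86.6 and 342 in watered camta5 and 239, 225 and 394 in watered Col-0. Its 8 drought values, 2.31 to 11.6, lay near the floor of the MAS5 scale, where the offset of 16 compresses the difference.

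AT5G22580 had 369.9 and 276 on the OX5 arrays, 836, 199 and 174 in droughted camta5 and 625, 30.6 and 229 in droughted Col-0, against 2259, 3959 and 3480.2 in watered camta5 and 3754, 3711 and 3237 in watered Col-0. Replicate 1 of both droughted camta5 and droughted Col-0 kept more signal than its companions, and Col-0 replicate 2 kept least. AT4G24780 had 230.4 and 157 on the OX5 arrays, 777, 189 and 218 in droughted camta5 and 368, 121 and 479 in droughted Col-0, against 2342, 3023 and 2702 in watered camta5 and 3933, 3081 and 2552 in watered Col-0. Its differences of -3.94 in OX5, -3.001 in camta5 and -3.41 in Col-0 lay within 1 log2 unit of each other, as those of 24 of the 47 loci did. AT1G65870 and AT5G20790 differed between the droughted lines and are described with the tests.

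Over the 47 loci the difference had a median of -2.32 in OX5 (range -6.32 to -1.55), -2.25 in camta5 (-3.89 to -1.53) and -2.59 in Col-0 (-4.35 to -1.51). Over the 15646 probe sets tested the medians of the same differences were 0.05, 0.04 and 0.08. At -3 or less in all 3 lay 7 loci, and at -2 or less 19. The deepest of the 3 differences was that of OX5 in 24 loci, that of Col-0 in 21 and that of camta5 in 2. Just inside the threshold were AT5G47050, with -1.53 in camta5, and AT5G24580, with -1.51 in Col-0. Just outside it were AT3G48490, with -1.498 in camta5, and AT2G26190, with -1.49 in Col-0.

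**Figure D2:**
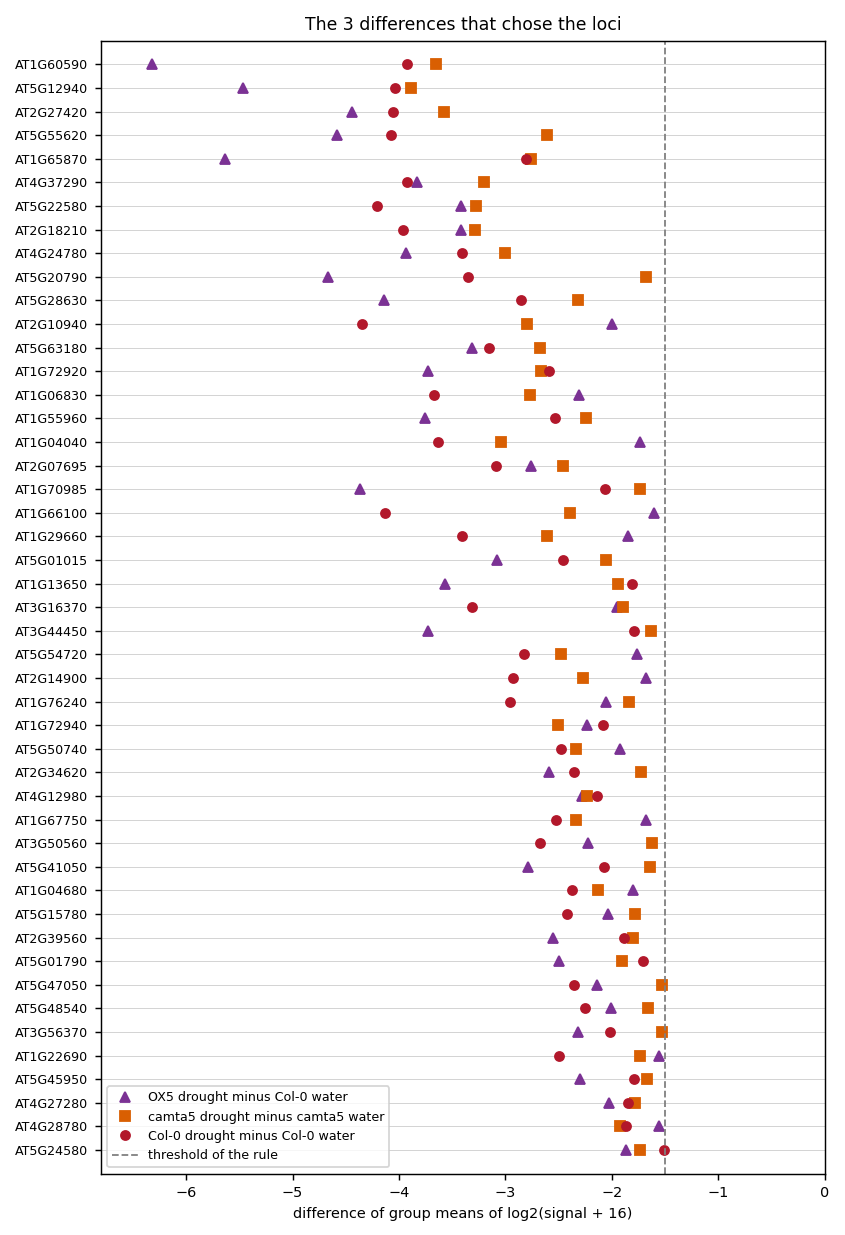
The 3 differences of group means that chose the loci, on the log2(signal + 16) scale, for each of the 47 loci (rows). Triangles are OX5 drought minus Col-0 water, squares camta5 drought minus camta5 water, circles Col-0 drought minus Col-0 water, and the dashed line is the threshold of -1.5. The triangles spread from -6.32 to -1.55, further than the squares or circles.

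Group means of the 47 loci ran from 5.04 to 2649 in OX5, 3.29 to 2672 in droughted camta5 and 2.78 to 3104 in droughted Col-0, against 75.0 to 12744 in watered camta5 and 117 to 12538 in watered Col-0. All 47 passed the filter on low values, which keeps a probe set if 2 or more arrays put it above their 40th percentile. In drought 15 loci in OX5, 11 in camta5 and 11 in Col-0 had a mean under 67.4, the median over arrays of that percentile, and with water none had. The percentile was 104 and 88.8 on the OX5 arrays, against 63.9 to 74.5 on the others. The cut of 67.4 is thus below the percentiles of the OX5 arrays themselves, and the count for OX5 is not like the others. Arrays of droughted and watered Col-0 did not overlap in 47 of 47 loci, those of camta5 in 46, and OX5 lay below watered Col-0 in 46 and below watered camta5 in 46. Among all probe sets tested 19.0%, 16.7%, 32.2% and 32.0% lay below in this way, and nothing is read from these counts, since the rule used the same arrays. All 8 drought arrays lay below all 6 water arrays in 43 of 47 loci, against 5.46% of all probe sets tested. Nothing is read from this count either, for the same reason. The exceptions were AT1G72920, AT2G07695, AT5G01790 and AT5G24580. In AT2G07695 droughted camta5 replicate 1 was at 1470 while its companions were at 176 and 94.2.

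Arrays of 1 drought group differed in the level of the loci. In droughted Col-0, replicate 1 was the highest array in 30 of 47 loci and replicate 2 the lowest in 34, and their median deviations from the group mean were 0.65 and -0.78 on the log2 scale. In droughted camta5, replicate 1 was the highest in 37 loci (median deviation 0.52) and replicates 2 and 3 the lowest in 25 and 20. Over all probe sets tested the median deviations of the drought arrays lay between -0.03 and 0.02, and an array was the highest of its 3 in 27.1% to 37.4% and the lowest in 28.3% to 36.7%. The median SD of a locus on the log2 scale was 0.40 in OX5, 0.69 in droughted camta5 and 0.87 in droughted Col-0, against 0.26 in watered camta5 and 0.30 in watered Col-0, while over all probe sets tested the 5 medians were 0.215 to 0.270.

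AT1G06830 was among the loci that varied in this way. It had 581 and 318 on the OX5 arrays, 399.7, 149.7 and 303 in droughted camta5 and 806, 26.4 and 133 in droughted Col-0, against 1759, 1629 and 2352 in watered camta5 and 2632, 2133 and 1894 in watered Col-0. Col-0 replicate 1 was the highest of all 8 drought arrays and replicate 2, at 26.4, the lowest, while both water groups stayed between 1629 and 2632. AT5G63180 had 63.7 and 113 on the OX5 arrays, 319, 138 and 26.6 in droughted camta5 and 311, 11.2 and 148 in droughted Col-0, against 663, 778 and 1047 in watered camta5 and 1114, 925 and 946 in watered Col-0. Its lowest Col-0 array was again replicate 2, while in camta5 replicate 3 was lowest. AT4G12980 varied little with water, with 213 and 208 on the OX5 arrays, 381, 219 and 177 in droughted camta5 and 378, 109 and 297 in droughted Col-0, against 1206, 1218 and 1235 in watered camta5 and 1101, 1095 and 1058 in watered Col-0. Its 6 water arrays lay between 1058 and 1235, its differences were -2.28 in OX5, -2.24 in camta5 and -2.14 in Col-0, and no comparison between the droughted lines called it.

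**Figure D3:**
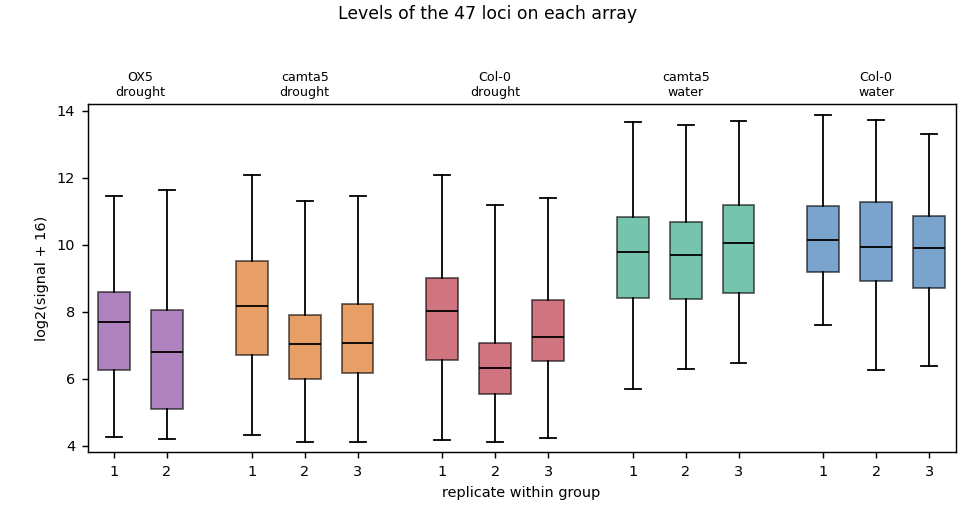
Levels of the 47 loci on each array, as log2(signal + 16), by group and replicate. Boxes span the quartiles, lines mark the medians and whiskers the lowest and highest locus. Col-0 drought replicate 2 has the lowest box, and replicate 1 of both 3-array drought groups the highest of its group.

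OX5 was compared with the other droughted lines, a contrast the rule did not use, although the OX5, camta5 and Col-0 drought arrays entered it separately. Against droughted Col-0, limma called 7 of the 47 loci lower in OX5 and 4 higher (14.9% and 8.51%). Over all 15646 probe sets these shares were 25.0% and 21.7%, and the loci's share of 23.4% called stood against 46.7%. Their median difference was -0.15, against -0.04 over all probe sets, and its sign rested on single arrays: it was 0.21 without Col-0 drought replicate 1 and 0.18 without OX5 replicate 2, and -0.36 without Col-0 drought replicate 2, -0.26 without OX5 replicate 1 and -0.06 without Col-0 drought replicate 3. Against droughted camta5, 9 loci were lower in OX5 and 2 higher (19.1% and 4.26%), against 22.5% and 20.2% of all probe sets, and their median difference was -0.21 against -0.02. That median was 0.05 without OX5 replicate 2 and 0.12 without camta5 drought replicate 1, -0.47 without OX5 replicate 1 and -0.35 without camta5 drought replicate 3, and -0.03 with an offset of 64. The rule kept only loci with OX5 far below watered Col-0, so it left out many that were higher in OX5. Of the 49 loci described below, which met only the Col-0 and camta5 criteria, 40 were called higher and 0 lower against droughted Col-0. Against droughted camta5, 35 of them were called higher and 0 lower. Nothing is therefore read from the shares of the 47 loci, and whether they differ from those of all probe sets was not tested. Called lower against both lines were AT1G65870, AT1G70985, AT1G13650, AT1G55960, AT5G20790 and AT1G60590, and higher against both AT1G04040. The 2 comparisons share the OX5 arrays. Without overlap, both OX5 arrays lay below droughted Col-0 in 8 loci and above it in 7, against 31.9% and 30.6% of all probe sets, and below droughted camta5 in 10 and above it in 6, against 29.8% and 29.9%.

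AT1G65870 had the largest difference of the 47 loci in both comparisons. Its drought signals were 29.5 and 17.8 in OX5, 283, 139 and 212 in camta5 and 502, 143 and 249 in Col-0, and its water signals 1508, 1056 and 1997 in camta5 and 1942, 2385 and 1571 in Col-0. Both OX5 arrays lay below all other drought arrays, and the difference was -2.83 ± 0.41 (SE) from Col-0 (adjusted p = 6.52e-05) and -2.49 ± 0.41 from camta5 (adjusted p = 0.000249). AT1G70985 had drought signals of 6.10 and 10.1 in OX5, 137, 66.1 and 118 in camta5 and 169.8, 30.7 and 175 in Col-0, and water signals of 458, 378 and 314 in camta5 and 547, 458 and 441 in Col-0. It was at -2.30 ± 0.48 from Col-0 (adjusted p = 0.00121) and -2.31 ± 0.48 from camta5 (adjusted p = 0.00142), again with no overlap. AT1G13650 had drought signals of 3.81 and 6.26 in OX5, 88.6, 110.5 and 88.9 in camta5 and 84.7, 30.5 and 60.2 in Col-0, and water signals of 306, 499 and 461 in camta5 and 376, 156 and 214 in Col-0. The OX5 values were near the floor, and the difference was -1.76 ± 0.38 from Col-0 (adjusted p = 0.00157) and -2.41 ± 0.38 from camta5 (adjusted p = 0.000158).

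AT1G55960 was the locus with the highest signal with water. Its drought signals were 1108 and 733 in OX5, 2720.3, 2496 and 2799.7 in camta5 and 3501, 1233 and 2193 in Col-0, and its water signals 12882, 12117 and 13234 in camta5 and 14964, 12595 and 10054 in Col-0. The 3 camta5 arrays lay close together, and both OX5 arrays were below every other drought array, at -1.22 ± 0.31 from Col-0 (adjusted p = 0.00545) and -1.55 ± 0.31 from camta5 (adjusted p = 0.00121). AT5G20790 had drought signals of 17.7 and 2.40 in OX5, 62.1, 173 and 69.3 in camta5 and 90.5, 30.8 and 31.7 in Col-0, and water signals of 374, 275 and 350.2 in camta5 and 714, 591 and 552 in Col-0. OX5 replicate 2 was near the floor, and the difference was -1.32 ± 0.43 from Col-0 (adjusted p = 0.0198) and -2.12 ± 0.43 from camta5 (adjusted p = 0.00113). AT1G60590, whose signals are given above, was at -2.39 ± 0.83 from Col-0 (adjusted p = 0.0282) and -2.29 ± 0.83 from camta5 (adjusted p = 0.0370), while its OX5 arrays overlapped those of Col-0. AT3G44450 was called lower only against Col-0, at -1.94 ± 0.53 (adjusted p = 0.00783), with drought signals of 101 and 3.33 in OX5, 102, 62.03 and 112 in camta5 and 245, 137 and 136 in Col-0. The OX5 arrays of AT3G44450 were far apart, and replicate 1 lay within the range of camta5.

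The sizes of these differences depend on the offset, most where OX5 was near the floor. For AT1G13650 the difference from Col-0 was -3.21 with an offset of 1 and -0.80 with 64, and that from camta5 -4.03 and -1.21. For AT1G65870 the difference from Col-0 was -3.46 and -1.93, for AT1G70985 -3.47 and -1.27, for AT3G44450 -2.99 and -1.14 and for AT1G60590 -3.54 and -1.57. AT5G20790 was at -2.52 and -0.60, and its call against Col-0 ended with 64 (adjusted p = 0.0877), as did that of AT1G60590 against camta5 (-1.40, adjusted p = 0.0691).

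**Figure D4:**
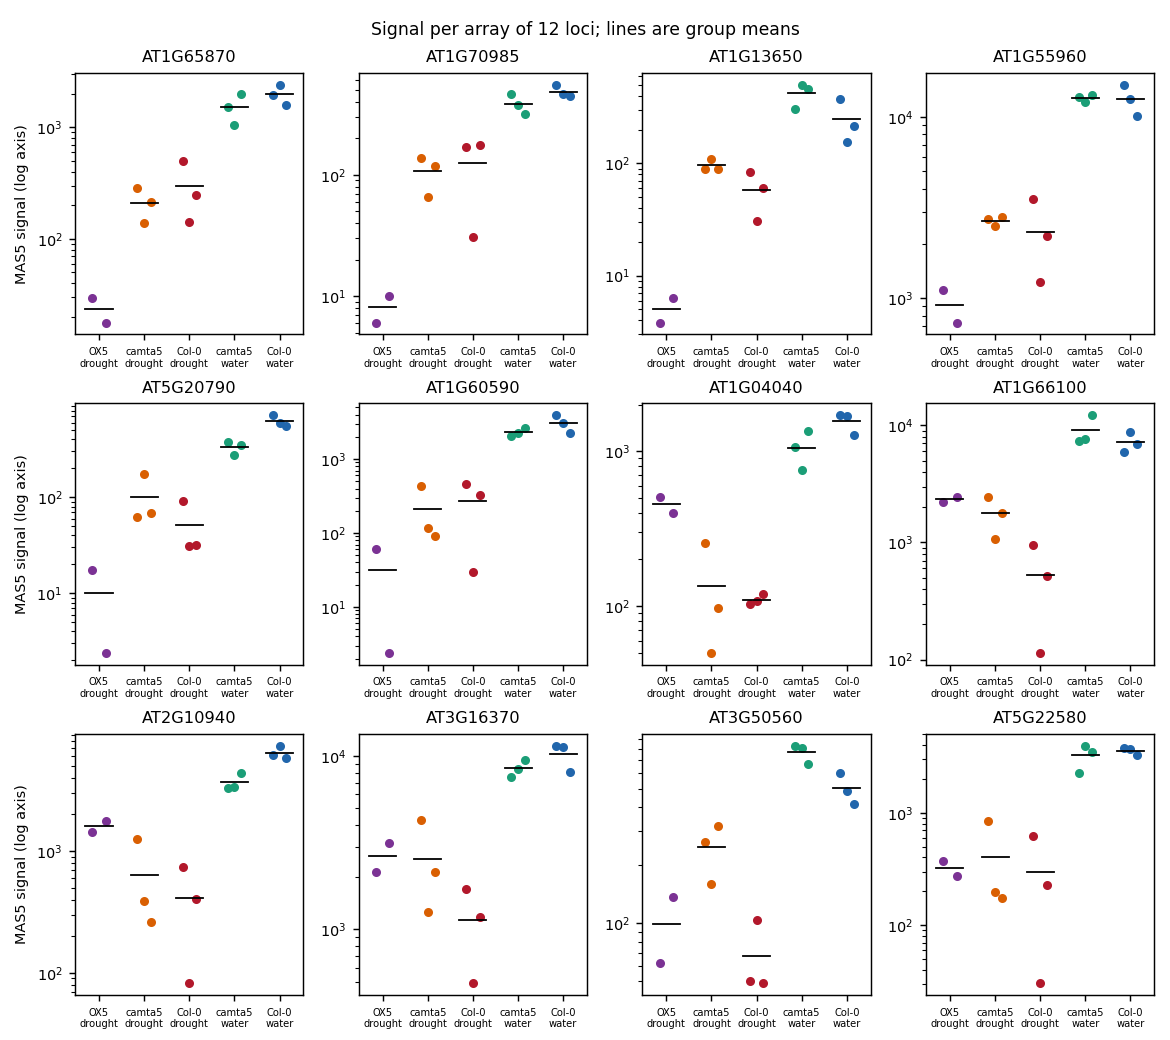
MAS5 signal per array (log axis) of 12 loci in the 5 groups, with lines at the group means. Shown are the 6 loci lower in OX5 than in both other droughted lines, the 4 higher than in Col-0, AT3G50560 and, as a locus called in no comparison, AT5G22580. In AT1G65870 the OX5 arrays at 29.5 and 17.8 lie under the other drought arrays, and in AT1G04040 at 509 and 398 over the other drought arrays.

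The 4 loci called higher had more signal in droughted OX5 than in droughted Col-0. AT1G04040 had drought signals of 509 and 398 in OX5, 257, 50.01 and 96.6 in camta5 and 103, 107 and 119.6 in Col-0, and water signals of 1060.2, 761 and 1344 in camta5 and 1704, 1685 and 1275 in Col-0. OX5 lay above all 6 other drought arrays, at 1.89 ± 0.42 from Col-0 (adjusted p = 0.00185) and 1.88 ± 0.42 from camta5 (adjusted p = 0.00228). AT1G66100 had drought signals of 2209 and 2461 in OX5, 2440.3, 1064 and 1798 in camta5 and 943, 114 and 520.3 in Col-0, and water signals of 7393, 7707 and 12164 in camta5 and 5923, 8727 and 6967 in Col-0. OX5 was 2.53 ± 0.58 above Col-0 (adjusted p = 0.00237) and overlapped camta5. AT2G10940 had drought signals of 1425 and 1768 in OX5, 1254, 391 and 263 in camta5 and 745, 82.5 and 404 in Col-0, and water signals of 3305, 3338 and 4348 in camta5 and 6156, 7369.5 and 5817 in Col-0. OX5 was 2.35 ± 0.66 above Col-0 (adjusted p = 0.00937), and 1.61 ± 0.66 above camta5 without a call (adjusted p = 0.0626). AT3G16370 had drought signals of 2149.9 and 3148 in OX5, 4295, 1252 and 2133 in camta5 and 1718, 491 and 1184 in Col-0, and water signals of 7567, 8365 and 9458 in camta5 and 11466, 11298 and 8024 in Col-0. OX5 was 1.36 ± 0.47 above Col-0 (adjusted p = 0.0270) and lay within the camta5 range.

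Against droughted camta5 alone, limma also called AT5G28630, AT5G55620 and AT3G50560 lower and AT5G54720 higher in OX5. AT5G28630 had drought signals of 15.01 and 62.7 in OX5, 271, 113 and 523 in camta5 and 226, 67.8 and 70.6 in Col-0 (-2.46 ± 0.57 from camta5, adjusted p = 0.00304). The OX5 arrays of AT5G28630 lay below all others, and camta5 replicates 3 and 1 had kept the most. AT5G55620 was at -1.78 ± 0.67 (adjusted p = 0.0447). AT3G50560 was at -1.22 ± 0.35 (adjusted p = 0.0107). AT5G54720, with drought signals of 70.4 and 74.9 in OX5, 34.2, 27.8 and 4.60 in camta5 and 51.1, 30.4 and 8.31 in Col-0, was at 1.31 ± 0.43 (adjusted p = 0.0231). All of its drought values were low, and OX5 lay above the rest. Both OX5 values were under the 40th percentiles of their own arrays, 104 and 88.8. The call of AT5G54720 ended with quantile normalization (0.75, adjusted p = 0.193) and with only the arrays compared (adjusted p = 0.138). The remaining 32 loci were called in neither comparison.

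**Figure D5:**
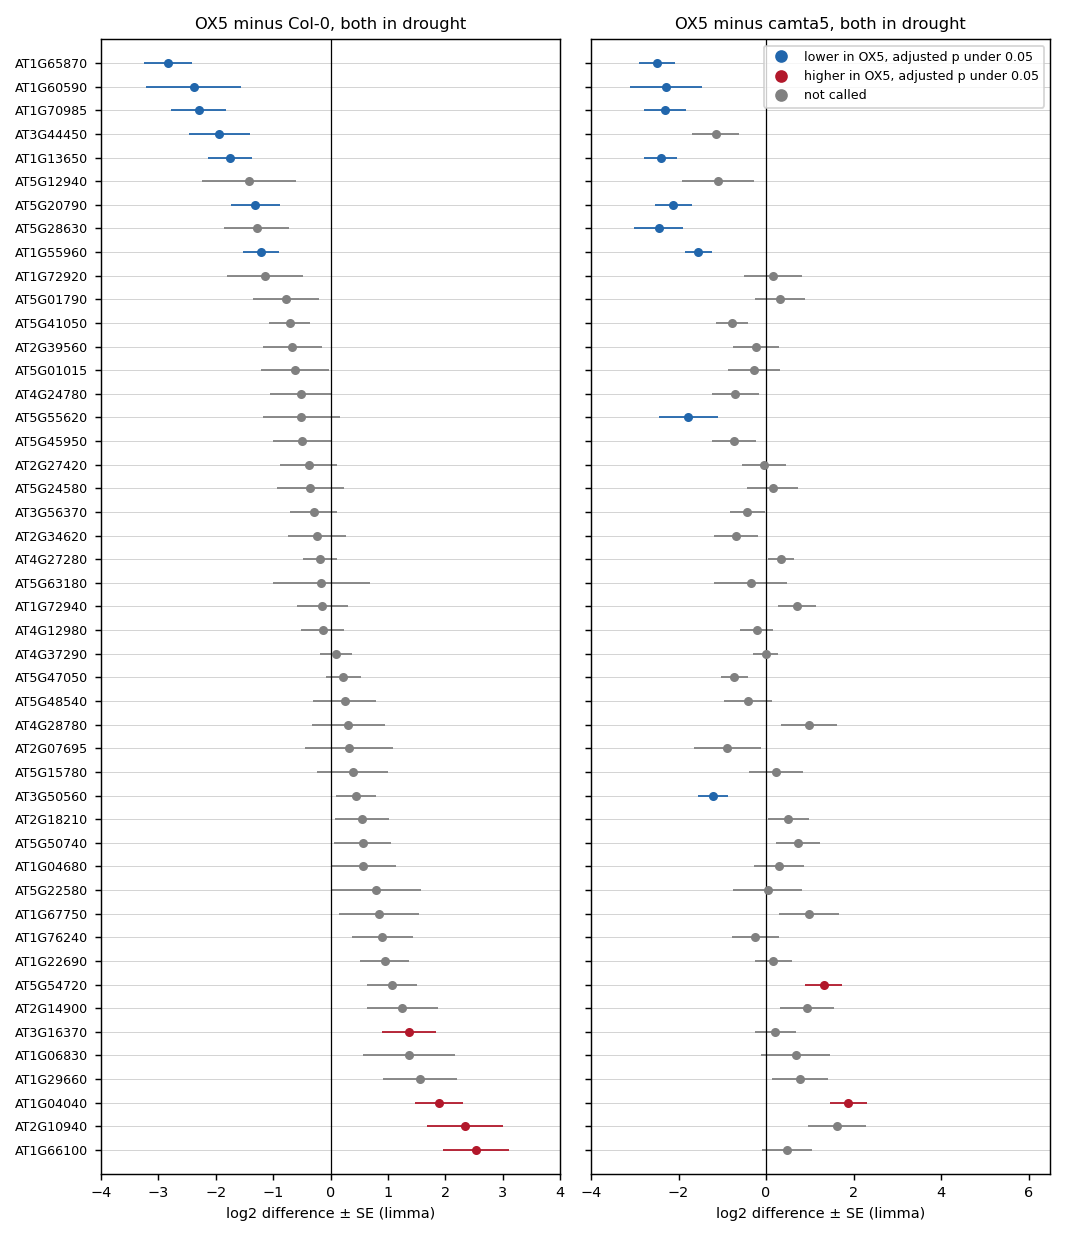
Log2 differences (points) with their SE (bars) from limma for the 47 loci (rows): OX5 minus Col-0 on the left and OX5 minus camta5 on the right, all in drought. Blue points were lower and red points higher in OX5 with an adjusted p under 0.05, and grey points were not called. On the left 7 points are blue and 4 red, on the right 9 and 2.

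With only 2 OX5 arrays, many of these calls rested on 1 of them. Against Col-0, leaving out OX5 replicate 2 ended the calls of AT1G60590 (-1.36, adjusted p = 0.293), AT3G44450 (-0.64, adjusted p = 0.192), AT5G20790 (-0.88, adjusted p = 0.182), AT1G55960 (-0.92, adjusted p = 0.0769), AT3G16370 (1.09, adjusted p = 0.169) and AT2G10940 (2.19, adjusted p = 0.0608). Leaving out OX5 replicate 1 moved AT1G60590 to -3.42 and AT3G44450 to -3.24. Without Col-0 drought replicate 1 the calls of AT5G20790 (-0.93, adjusted p = 0.0798) and AT1G60590 (-1.75, adjusted p = 0.103) ended, and AT1G66100 was at 3.15 and AT2G10940 at 2.98. Without Col-0 drought replicate 2 the call of AT3G16370 ended (0.86, adjusted p = 0.105), and AT1G66100 was at 1.71, AT2G10940 at 1.504, AT1G70985 at -2.97 and AT1G60590 at -3.44. Without Col-0 drought replicate 3 the call of AT1G60590 ended (-1.98, adjusted p = 0.0919).

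Against camta5, leaving out OX5 replicate 1 ended the calls of AT5G28630 (-1.78, adjusted p = 0.0614), AT3G50560 (-0.73, adjusted p = 0.169), AT5G54720 (adjusted p = 0.0744) and AT5G55620 (adjusted p = 0.0517), and AT1G60590 was at -3.32. Leaving out OX5 replicate 2 ended those of AT1G60590 (-1.26, adjusted p = 0.334), AT5G55620 (-1.23, adjusted p = 0.275) and AT5G54720 (adjusted p = 0.0832), and moved AT5G28630 to -3.13. Without camta5 drought replicate 1 AT1G60590 (-1.66, adjusted p = 0.131) and AT5G55620 (adjusted p = 0.147) were not called, nor was AT5G55620 without replicate 2 (adjusted p = 0.0579) or AT5G54720 without replicate 3 (0.92, adjusted p = 0.0829). AT5G55620 also lost its call through the shared spread without Col-0 drought replicate 3 or any 1 of the 6 water arrays (adjusted p = 0.0518 to 0.0576). With only the arrays compared, 6 calls against Col-0 ended, those of AT5G20790 (adjusted p = 0.164), AT3G44450 (0.0703), AT1G13650 (0.0576), AT3G16370 (0.0575), AT1G55960 (0.0516) and AT1G60590 (0.113). Against camta5 those of AT3G50560 (0.05002), AT1G60590 (0.0508) and AT5G54720 (0.138) did. Moderation without trend ended the camta5 calls of AT1G60590 (0.0582) and AT5G55620 (0.0686). That of AT5G55620 also ended with no filter (0.0515) and with an offset of 1 (0.0537). The calls that held in every setting run were AT1G65870, AT1G70985, AT1G04040 and AT1G66100 against Col-0, and AT1G65870, AT1G70985, AT1G13650, AT1G55960, AT5G20790 and AT1G04040 against camta5.

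Droughted camta5 and droughted Col-0 were compared next, both of which the rule had set against their own watered plants. In limma 1 of the 47 loci was called, AT3G50560, or 2.13%, against 1.46% of all probe sets tested, with 1.02% higher and 0.441% lower. Its drought signals were 264, 161 and 318 in camta5 and 49.9, 104 and 48.98 in Col-0, with 61.9 and 137 in OX5, and its water signals 837, 809 and 674 in camta5 and 601, 487 and 417 in Col-0. Every camta5 array lay above every Col-0 array, by 1.67 ± 0.31 on the log2 scale (adjusted p = 0.0133). The call was lost on leaving out Col-0 drought replicate 3 (1.52, adjusted p = 0.0714), on leaving out camta5 drought replicate 3 (1.47, adjusted p = 0.0715) and when limma was given just the 6 arrays of both groups (adjusted p = 0.148). Without Col-0 drought replicate 1, 5 loci were higher in camta5, the others being AT1G66100 (2.68), AT5G55620 (2.07), AT1G06830 (1.82) and AT5G47050 (1.32). Of all 15646 probe sets 335 were called higher in that setting. With all arrays AT1G66100 was at 2.06 ± 0.52 (adjusted p = 0.0672), AT5G47050 at 0.95 ± 0.27 (adjusted p = 0.106) and AT3G16370 at 1.16 ± 0.42 (adjusted p = 0.203). Over the 47 loci the median was 0.16, against -0.03 over all probe sets, and its direction rested on single arrays. It was -0.28, with 32 loci below 0, without Col-0 drought replicate 2, and -0.19, with 27 below 0, without camta5 drought replicate 1. It was 0.40 and 0.36 without Col-0 drought replicates 1 and 3, 0.39 and 0.30 without camta5 drought replicates 2 and 3, and 0.07 with an offset of 64. All 3 droughted camta5 arrays lay above all 3 of droughted Col-0 in 5 loci and below them in 4, where 7.77% and 10.2% of all probe sets did.

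With water, no locus was called between camta5 and Col-0 in limma (0.00% of all probe sets were called either), and 4 had an unadjusted p under 0.05, 8.51% against 6.39% of all probe sets. These were AT4G37290 (-0.62 ± 0.25, adjusted p = 0.719), AT1G13650 (0.78 ± 0.34, adjusted p = 0.754), AT5G20790 (-0.87 ± 0.38, adjusted p = 0.766) and AT4G27280 (-0.60 ± 0.27, adjusted p = 0.771). AT4G27280 was among the brightest loci, at 6384, 5725 and 9969 in camta5 and 11968, 13557 and 7842 in Col-0 with water. Its Col-0 replicate 3 lay within the camta5 range. In 34 of 47 loci the watered camta5 mean was below that of watered Col-0, with a median of -0.32 against 0.01 over all probe sets. The median was -0.18 without Col-0 water replicate 1, -0.21 without camta5 water replicate 1 and -0.09 with that array counted as Col-0, as its genotype field has it. The watered camta5 arrays lay entirely below those of watered Col-0 in 9 loci and above them in 2, where 7.38% and 7.87% of all probe sets did. Watered Col-0 was subtracted in 2 of the 3 differences of the rule, so the rule favours high values there and the direction of this median is not independent of the choice.

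The drought response, drought minus water, was less deep in camta5 than in Col-0 in 40 of 47 loci and deeper in 7, with a median difference between the responses of 0.47. This is a description, since both responses are differences that the rule used, and watered Col-0 entered 2 of its 3 criteria, which favours a deeper fall in Col-0. It also rested on single arrays: without Col-0 drought replicate 2 the median was 0.02 and 23 loci fell deeper in camta5, and without camta5 drought replicate 1 it was 0.17 with 18. With camta5 water replicate 1 counted as Col-0 it was 0.28 with 15. Limma's test of the difference is not free of the choice, since both responses had to lie at -1.5 or less. It called no locus (0.00% of all probe sets were called). An unadjusted p under 0.05 was found for 5 loci, 10.6% against 5.66% of all probe sets, from which nothing is read. They were AT5G20790 (1.67 ± 0.54), AT3G16370 (1.42 ± 0.59), AT3G50560 (1.05 ± 0.44), AT1G66100 (1.74 ± 0.73) and AT5G47050 (0.83 ± 0.39). In AT3G16370 and AT1G66100 the camta5 arrays had kept more signal in drought, while in AT5G20790 the water signals were 374, 275 and 350.2 in camta5 against 714, 591 and 552 in Col-0. Across the 47 loci the responses of camta5 and Col-0, which share no arrays, had a Spearman coefficient of 0.74 and a Pearson coefficient of 0.78, over loci that the rule had cut at -1.5 in both.

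Another 49 loci with only a locus number met the Col-0 and camta5 criteria without that of OX5. Their medians were -0.46 in OX5, -1.91 in camta5 and -2.36 in Col-0, and with water their median signal was 402 in camta5 and 388 in Col-0, against 908 and 995 for the 47 loci. Their response was less deep in camta5 in 38 of 49, with a median difference between the responses of 0.26. In drought replicate 1 of camta5 was the highest array in 35 of them and replicate 1 of Col-0 in 27, with median deviations of 0.53 and 0.33. Col-0 drought replicate 2 was the lowest in 24 of them, with a median deviation of -0.27, against 34 of the 47 loci and -0.78. Whether the sets differ in this was not tested.

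AT1G72920 and AT1G72940 were the only loci of the 47 within 3 protein-coding genes of each other in RefSeq's TAIR10.1 table, with 1 gene, AT1G72930, between them, which no probe set used here named alone. AT1G72920 had 237 and 19.5 on the OX5 arrays, 87.4, 67.5 and 55.5 in droughted camta5 and 363, 90.3 and 211 in droughted Col-0, against 344, 475 and 880.4 in watered camta5 and 1189, 1753 and 918 in watered Col-0. AT1G72940 had 477 and 428 on the OX5 arrays, 565, 155 and 220.3 in droughted camta5 and 831, 330.0 and 458 in droughted Col-0, against 1546, 1193 and 2250.0 in watered camta5 and 2374, 2526 and 1726 in watered Col-0. Both had the same order among the watered Col-0 arrays, with replicate 2 highest and replicate 3 lowest, and in drought both were highest in Col-0 replicate 1. Their orders differed among the watered and among the droughted camta5 arrays. Over the 47 loci, Col-0 water replicate 3 was the lowest of its group in 30 and Col-0 drought replicate 1 the highest in 30. The shared order is therefore not particular to this pair. Neither was called in any comparison. Whether their probes also bind each other's transcripts is not known from the files. The probe set of AT2G07695 alone carried the suffix _s_at, which marks probes shared by several transcripts, so its signal may be that of more than 1 gene.

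The loci not yet given by value were called in none of the tests. AT1G29660, with drought signals of 1145 and 1175 in OX5, 1597, 396 and 467 in camta5 and 967, 114 and 477 in Col-0 and water signals of 3868, 3641 and 5166 in camta5 and 3397, 4658 and 4735 in Col-0, was the nearest to a call among them, at 1.56 ± 0.64 between OX5 and Col-0 (adjusted p = 0.0595). Its OX5 arrays lay above all Col-0 drought arrays and within the camta5 range. AT5G48540 had drought signals of 488 and 561 in OX5, 811, 304 and 1418 in camta5 and 990.0, 318 and 264 in Col-0 and water signals of 2475, 1638 and 2916 in camta5 and 1659, 2299 and 2607 in Col-0. In AT5G48540 camta5 replicate 3 was the highest drought array. AT2G34620, AT5G41050, AT1G04680, AT5G45950, AT5G50740, AT3G56370 and AT1G22690 had water means (both lines) between 406 and 2029.8, and differences between -2.79 and -1.53. Among them AT2G34620 had 328 ± 82.9 in OX5 (SD, n = 2), 574 ± 307 in droughted camta5 and 468 ± 318 in droughted Col-0, against 1788 ± 228 in watered camta5 and 2029.8 ± 219 in watered Col-0 (SD, n = 3 each). AT5G01015, AT2G14900, AT1G76240, AT1G67750, AT5G01790, AT2G39560, AT5G15780 and AT4G28780 had low signals, with water means from 75.0 to 547 and drought means from 6.49 to 91.9.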

How the data were processed

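The deposited values were MAS5 signal intensities on a linear scale, 1 per probe set and array, and the submitters' processing notes name MAS5 and Affymetrix Expression Console as the tools the authors used; their versions are not given in the sources used here. The mean of each array after trimming 2% at each end was near 500, its median was 134 to 168, and any pair of arrays had at most 2 values in common. Detection calls were not used here. The offset of 16 was added before log2 was taken. Probe sets that 2 or more arrays put above their 40th percentile were tested with limma 3.58.1 in R 4.3.3 (lmFit, 1 mean per group over all 14 arrays, eBayes with trend). P-values were two-sided and Benjamini-Hochberg adjusted over all 15646 probe sets in each of 5 comparisons, and a call needed an adjusted p under 0.05. The procedure was tested on simulated data.

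The 47 loci, the marker lists and the tests were chosen with earlier results of these data known. Named by rule were CAMTA5, the 10 loci with the lowest mean of the 3 differences, the 4 with the smallest p in each comparison, and those next to the threshold; other loci were named after their values were seen. Of 22810 probe sets 13513 had 1 gene in the platform annotation, 503 several and 8794 none, and 13436 of the first matched RefSeq's TAIR10.1 table. The planned sorting by product words and counting of promoter motifs were not run, since the tables used here hold neither. Alternatives covered the offset, scaling, filter, moderation, threshold, grouping, arrays in the fit and replicate numbers. The deviations of same-numbered arrays were at most weakly correlated: the 3 correlations between droughted camta5 and droughted Col-0 were 0.228, 0.235 and -0.159, and no pair of groups had all of its correlations over 0.1. The number of arrays limits the precision.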

Additional observations from a re-analysis of the deposited data

How the results depend on the processing

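The number of loci meeting the rule depended on its settings: it was 79 with an offset of 1 and 29 with an offset of 64, 131 at a threshold of -1 and 19 at -2, and 96 without the OX5 criterion. Leaving out 1 array at a time gave 38 to 61 loci, and 25 of the 47 were kept whichever array was left out. Quantile normalization gave 54, median centring 51 and camta5 water replicate 1 counted as Col-0 water 43. Set against watered camta5, an alternative chosen after seeing the data, the OX5 criterion gave 44, of which 40 were shared. A fit of only the arrays compared called 5 loci between OX5 and droughted Col-0 and 0 between droughted camta5 and droughted Col-0. Of all 15646 probe sets it called 6011 and 9. Without 1 array of a group of 3, 3 to 9 loci were called higher and 5 to 10 lower in OX5 than in droughted Col-0. Of all probe sets 2941 to 3451 and 3413 to 3950 were. Between OX5 and droughted camta5 10 to 13 loci were called, against 5806 to 6725 of all probe sets. Between droughted camta5 and droughted Col-0 0 to 5 were, against 84 to 552. The cause was not tested. With the replicate block the rule gave 49 loci, and 13, 12 and 1 were called in these 3 comparisons, against 7020, 6380 and 245 of all probe sets. Whether replicate numbers pair the samples was not settled. Over the 47 loci replicate 1 was most often the highest array in droughted camta5 (37) and droughted Col-0 (30), and replicate 2 most often the lowest (25 and 34). With water, and in the difference of the responses, 0 loci were called by limma in every alternative run. Of all probe sets at most 44 were called with water and at most 37 in the difference of the responses. Without both OX5 arrays, also chosen after seeing the data, AT3G50560 was still the 1 locus called between droughted camta5 and droughted Col-0. Median centring moved the median of all probe sets to -0.17 for OX5 minus droughted Col-0 and -0.16 for OX5 minus droughted camta5, and the calls over all probe sets in the second to 2485 higher and 4194 lower, against 3153 and 3513 as deposited. AT5G24580, called in no comparison with all arrays, was called lower in OX5 without OX5 replicate 1 (-1.85 from droughted Col-0, -1.34 from droughted camta5) and higher without OX5 replicate 2 (1.14 and 1.65). The medians over the 47 loci also changed sign with 1 array left out: they ran between -0.36 and 0.21 for OX5 minus droughted Col-0, between -0.47 and 0.12 for OX5 minus droughted camta5 and between -0.28 and 0.40 for droughted camta5 minus droughted Col-0. Signals near the floor of the scale have no dependable order, and with 2 OX5 arrays a single array can make or end a call.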

Other observations

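In 6 of the 47 loci the OX5 arrays lay over 2 log2 units apart: AT1G60590, AT1G72920, AT3G44450, AT5G01015, AT5G01790 and AT5G24580. AT5G24580 had 193 and 10.4 on the OX5 arrays, against 62.1, 86.6 and 90.4 in droughted Col-0, and its mean of OX5 minus droughted Col-0 depended on which OX5 array was kept. AT5G01015 had 139.8 and 8.36 on the OX5 arrays, against 70.7, 61.8 and 109.9 in droughted Col-0. The median gap between the OX5 arrays was 0.57 over the 47 loci and 0.31 over all probe sets tested.

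By locus number, 15 of the 47 loci lay on chromosome 1, 7 on chromosome 2, 4 on chromosome 3, 5 on chromosome 4 and 16 on chromosome 5. Among all probe sets with only a locus number, 26.0%, 16.5%, 20.5%, 14.45% and 22.6% did, in the same order. No test was made of these shares.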
